A study of Mus musculus with 5 samples.

Results

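The genes described here mark somatic cells: 20 genes of fibroblasts and other mesenchymal cells, and 16 genes of cumulus and granulosa cells, the somatic cells that surround the oocyte. They were taken from a list of symbols, and all 36 were found among the 22026 gene symbols of each deposited file. The samples were 4-cell mouse embryos of the B6D2F1 strain made by nuclear transfer, where an enucleated oocyte receives the nucleus of another cell. There were 5 RNA-seq libraries, 1 per group: knockdown embryos given H3.3 mRNA (the H3.3 mRNA add-back), knockdown embryos labelled as given H3.2 mRNA, embryos with the H3.3 knockdown alone, embryos treated with luciferase, and untreated embryos. H3.3 is a histone H3 variant that chromatin takes up at any time in the cell cycle, and H3.2 is a form taken up at replication. For the library labelled H3.2 mRNA the treatment tag names H3.3 mRNA instead, so each value given for it rests on its title. The sources used here do not give the donor cell type, the number of embryos in a library or the age of the oocyte donors. With 1 library per group, no value has a replicate check and no p-value is given.

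Genes of the donor cell are of interest in nuclear transfer because the oocyte must switch off the programme of the transferred nucleus before the embryo starts its own, and transcripts that persist are often called somatic memory. Fibroblasts are known for the fibrillar collagens, the proteoglycans decorin and lumican, periostin and the surface protein Thy1. Cumulus and mural granulosa cells are known for the hyaluronan-rich matrix built at ovulation, for the gonadotropin receptors, for inhibins and activins, and for steroid synthesis. Several genes of the fibroblast list, such as Sparc, Vim, Lgals1 and Fn1, are not restricted to fibroblasts and are also active in other tissues, extraembryonic endoderm among them for Sparc, Vim and Fn1.

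Most of these somatic genes were listed at 0 in every library. Of the 20 fibroblast and mesenchymal genes, 12 (60%) were listed at 0 FPKM (fragments scaled to transcript length and to the library's mapped fragments) in all 5 libraries. Of the 16 cumulus and granulosa genes, 9 (56.2%) were listed at 0 throughout. Among all 22026 genes the share was 35.2%. Wider lists went the other way, with 16.3% of other mesenchymal genes and 24.4% of other granulosa and cumulus genes at 0 throughout. The fibroblast genes at 0 everywhere were the collagen chain genes Col1a1, Col3a1, Col5a1, Col5a2, Col6a1 and Col6a2, together with Thy1, S100a4, Dcn, Lum, Postn and the homeobox gene Prrx1. The cumulus and granulosa genes at 0 everywhere were Has2, Ptx3, Amh, Inhba, Fshr, Lhcgr, Cyp11a1, Hsd3b1 and Nr5a1.

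The label of somatic cells was not borne out by most of the defining markers, which are a subset of the members. That subset leaves out Sparc, Lgals1, Vim, Fn1, Tnfaip6 and Ptgs2, which carried signal. It also leaves out members at 0 throughout, such as Col5a1 and Inhba. Of 9 defining fibroblast markers, 7 were at 0 in every library. The other two, Col1a2 and the mesenchymal transcription factor gene Twist1, were above 0 in the luciferase library alone, at 2.48 and 5.12 FPKM. Of 10 defining cumulus and granulosa markers, 7 were at 0 in every library, and the summed level of the 10 was 0 with H3.3 mRNA, 0.87 FPKM with H3.2 mRNA, 19.67 FPKM in the knockdown, 7.22 FPKM in the luciferase library and 4.25 FPKM in the untreated library. The 7 defining oocyte markers were above 0 in all 5 libraries, as were 12 of the 17 markers in the full oocyte list. The genes that carried signal are therefore named below as single genes and not as signs of a cell type.

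**Figure D1:**
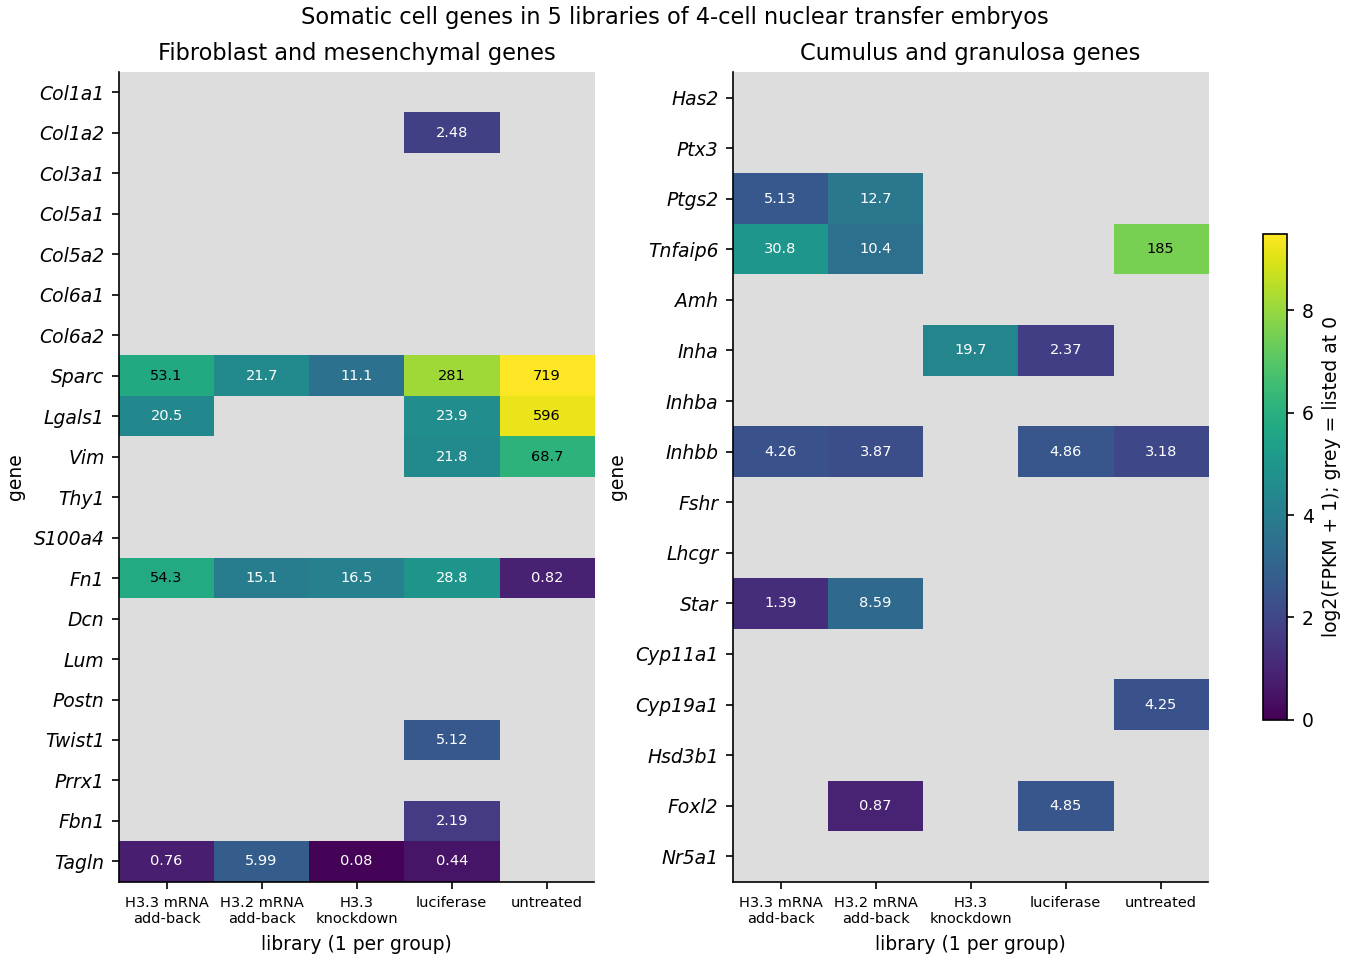
Level of each of the 36 genes (rows) in each library (columns), coloured by log2(FPKM + 1) with the FPKM value printed and grey where the gene is listed at 0. Grey fills most of both panels, and Sparc at 719 FPKM and Lgals1 at 596 FPKM in the untreated library are the highest values.

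Signal lay in few genes. In the fibroblast and mesenchymal group 4 genes were above 0 with H3.3 mRNA, 3 with H3.2 mRNA, 3 in the knockdown, 8 in the luciferase library and 4 in the untreated library. The sum over the 20 genes was 128.64 FPKM with H3.3 mRNA, 42.83 FPKM with H3.2 mRNA, 27.64 FPKM in the knockdown, 365.19 FPKM in the luciferase library and 1385.11 FPKM in the untreated library. Sparc alone made up 76.8% of the sum in the luciferase library and 51.9% in the untreated library. In the cumulus and granulosa group 4 genes were above 0 with H3.3 mRNA, 5 with H3.2 mRNA, 1 in the knockdown, 3 in the luciferase library and 3 in the untreated library. The sum over the 16 genes was 41.61 FPKM with H3.3 mRNA, 36.45 FPKM with H3.2 mRNA, 19.67 FPKM in the knockdown, 12.08 FPKM in the luciferase library and 192.21 FPKM in the untreated library. Tnfaip6 made up 96.1% of the sum in the untreated library. Between 6.25% and 40% of the genes of either group were above 0 in a library, against 47.4% to 55.8% of all genes. In these bulk samples fewer cells with a transcript and less of it per cell cannot be told apart.

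**Figure D2:**
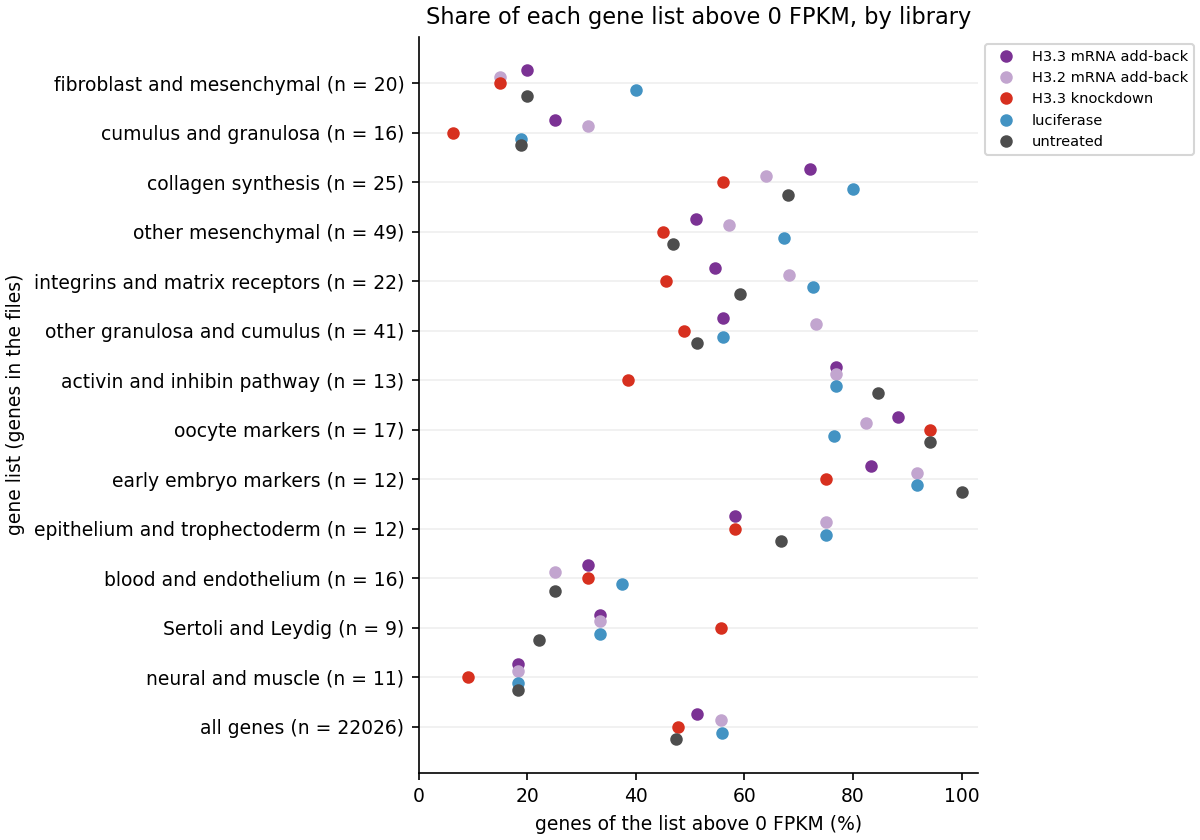
Percent of genes above 0 FPKM (x axis) in each gene list (rows), with 1 point per library. The fibroblast and cumulus genes lie at 40% or less in every library, as do the blood and endothelial and the neural and muscle markers, whereas oocyte and early embryo markers lie at 75% or more.

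Sparc encodes SPARC, a secreted matrix glycoprotein that binds collagen and calcium. Sparc was at 53.06 FPKM with H3.3 mRNA, 21.71 FPKM with H3.2 mRNA and 11.09 FPKM in the knockdown, against 280.53 FPKM in the luciferase library and 719.43 FPKM in the untreated library. It ranked 8679 among the 10496 genes above 0 in the knockdown and 1203 among the 10443 in the untreated library. The 3 libraries with the knockdown all lay below both controls. The knockdown level was 3.95% of the luciferase level and 1.54% of the untreated level, differences of -4.54 and -5.90 in log2(FPKM + 1). Within the libraries whose source name reads NT, Sparc with H3.3 mRNA stood at 7.38% of the untreated level, and within those that read SCNT it stood with H3.2 mRNA at 7.74% of the luciferase level. The labels do not say whether these source names mark separate experiments, and they were treated as a possible batch.

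Lgals1 encodes galectin-1, a small lectin that binds galactose-containing sugars on cell surfaces. Lgals1 was at 20.54 FPKM with H3.3 mRNA and at 0 both with H3.2 mRNA and in the knockdown, against 23.92 FPKM in the luciferase library and 596.21 FPKM in the untreated library. The groups do not overlap, but the H3.3 mRNA value lay close to the luciferase value, at 85.9% of it. The luciferase level was 4.01% of the untreated level, a difference of -4.58 in log2(FPKM + 1) between the 2 controls. The distance between the controls was thus far larger than that between the luciferase and the H3.3 mRNA library.

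Vim encodes vimentin, the intermediate filament protein of mesenchymal cells. Vim was at 0 in all 3 libraries with the knockdown, against 21.75 FPKM in the luciferase library and 68.65 FPKM in the untreated library. No fold is given for a gene listed at 0. Vim was the only one of the 4 fibroblast genes past 10 FPKM that was at 0 in both add-back libraries.

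Fn1 encodes fibronectin, the matrix glycoprotein that integrins bind. Fn1 was at 54.28 FPKM with H3.3 mRNA, 15.13 FPKM with H3.2 mRNA and 16.47 FPKM in the knockdown, against 28.76 FPKM in the luciferase library and 0.82 FPKM in the untreated library. Its order differed from that of Sparc, Lgals1 and Vim, since the untreated library was the lowest and the libraries with the knockdown overlapped the controls. In log2(FPKM + 1), Fn1 differed by -0.77 between the knockdown and the luciferase library and by 3.26 between the knockdown and the untreated library. Sparc and Fn1 were the only fibroblast genes above 0 in all 5 libraries.

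**Figure D3:**
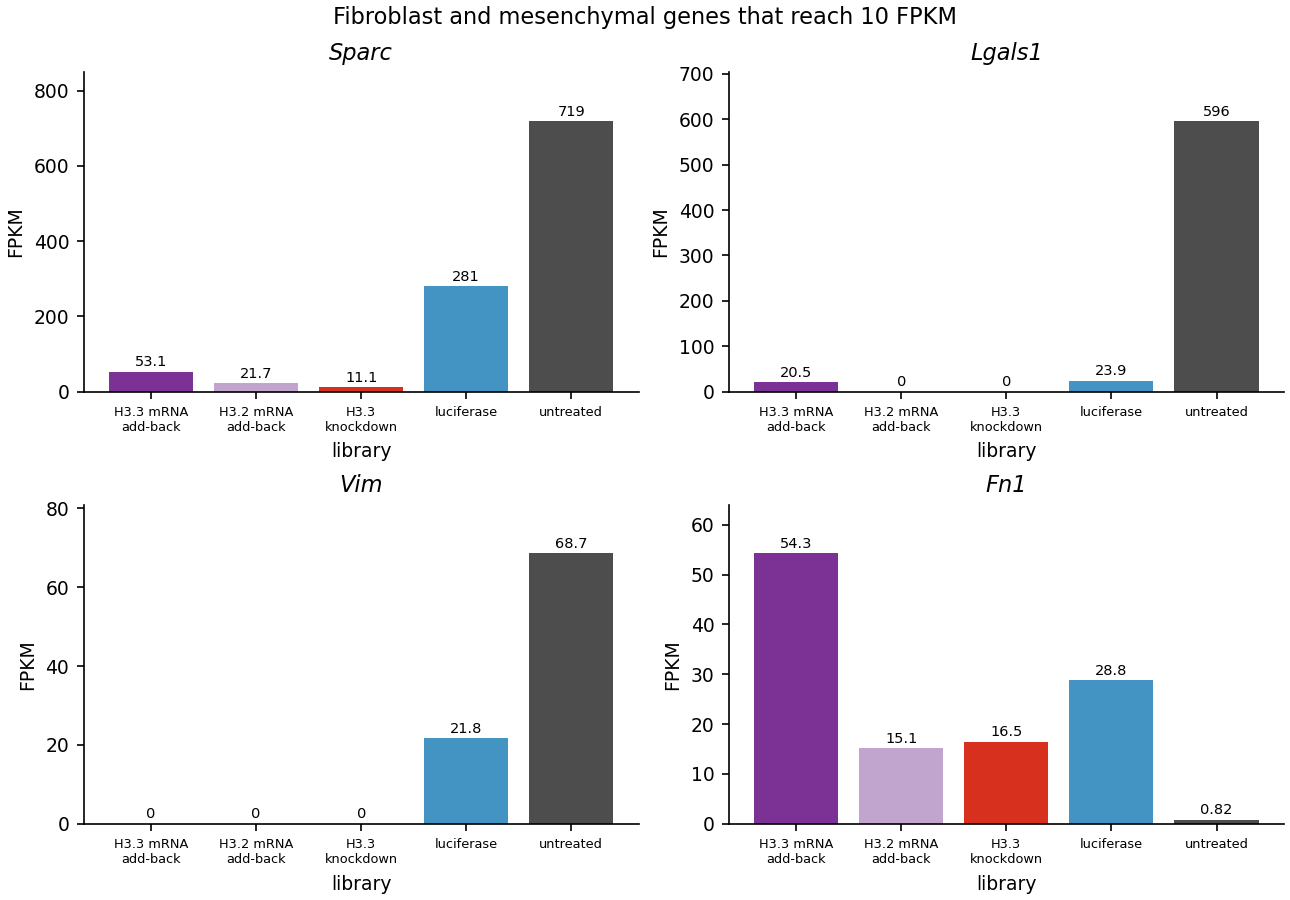
FPKM (y axis, from 0) of Sparc, Lgals1, Vim and Fn1 in each of the 5 libraries (bars, 1 library each, no error). Sparc, Lgals1 and Vim are highest in the untreated library, and Fn1 is highest with H3.3 mRNA at 54.28 FPKM.

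The other fibroblast genes with signal stayed low. Tagln, which encodes the actin-binding protein transgelin, was at 0.76 FPKM with H3.3 mRNA, 5.99 FPKM with H3.2 mRNA, 0.08 FPKM in the knockdown, 0.44 FPKM in the luciferase library and 0 in the untreated library. Fbn1, the fibrillin-1 gene of elastic microfibrils, was at 2.19 FPKM in the luciferase library and at 0 elsewhere, as were Col1a2 and Twist1 apart from the luciferase values given above. None of the 7 collagen chain genes of the list was above 0 in the untreated library, where Sparc, which binds collagen, was highest.

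Tnfaip6 encodes TSG-6, the protein that joins heavy chains of a serum inhibitor to hyaluronan in the cumulus matrix. Tnfaip6 was at 30.83 FPKM with H3.3 mRNA and 10.44 FPKM with H3.2 mRNA, at 0 both in the knockdown and in the luciferase library, and at 184.78 FPKM in the untreated library. The libraries with the knockdown lay at or above the luciferase value and below the untreated value. Has2, the hyaluronan synthase of cumulus expansion, and Ptx3, which encodes the pentraxin that crosslinks that matrix, were at 0 in every library. The untreated library thus held Tnfaip6 with neither partner gene above 0. Vcan, the matrix proteoglycan versican and no member of the list, was also highest there, at 4.81 FPKM with H3.3 mRNA, 1.37 FPKM with H3.2 mRNA, 2.05 FPKM in the knockdown, 0 in the luciferase library and 61.95 FPKM in the untreated library.

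Ptgs2 encodes cyclooxygenase-2, the inducible prostaglandin synthase of ovulation. Ptgs2 was at 5.13 FPKM with H3.3 mRNA and 12.68 FPKM with H3.2 mRNA, and at 0 in the knockdown, the luciferase and the untreated library. Star, which encodes the protein that brings cholesterol into mitochondria for steroid synthesis, followed the same order, at 1.39 FPKM with H3.3 mRNA, 8.59 FPKM with H3.2 mRNA and 0 in the other 3 libraries. Both genes were above 0 in the add-back libraries alone. Cyp11a1 and Hsd3b1, the enzyme genes that act after Star in steroid synthesis, were at 0 in all 5 libraries. Cyp19a1, the aromatase gene, was at 4.25 FPKM in the untreated library and at 0 in the others.

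Inha encodes the alpha subunit of inhibin, which pairs with a beta subunit from Inhba or Inhbb, and 2 beta subunits together form activin. Inha was at 19.67 FPKM in the knockdown, against 2.37 FPKM in the luciferase library, and was at 0 in the add-back libraries and the untreated library. In log2(FPKM + 1) the knockdown was higher than the luciferase library by 2.62. Inhbb was at 4.26 FPKM with H3.3 mRNA, 3.87 FPKM with H3.2 mRNA, 0 in the knockdown, 4.86 FPKM in the luciferase library and 3.18 FPKM in the untreated library. Inhba was at 0 throughout, so the knockdown library listed the alpha subunit and no beta subunit. Foxl2, a transcription factor gene of granulosa cell identity, was at 0.87 FPKM with H3.2 mRNA, 4.85 FPKM in the luciferase library and 0 in the other 3, and Nr5a1, which encodes steroidogenic factor 1, was at 0 throughout. The receptor genes Fshr and Lhcgr and the hormone gene Amh were at 0 as well. Amhr2, which encodes a receptor of the hormone made from Amh and was singled out after its values were seen, was at 428.79 FPKM with H3.3 mRNA, 526.74 FPKM with H3.2 mRNA, 1056.02 FPKM in the knockdown, 471.86 FPKM in the luciferase library and 142.48 FPKM in the untreated library.

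**Figure D4:**
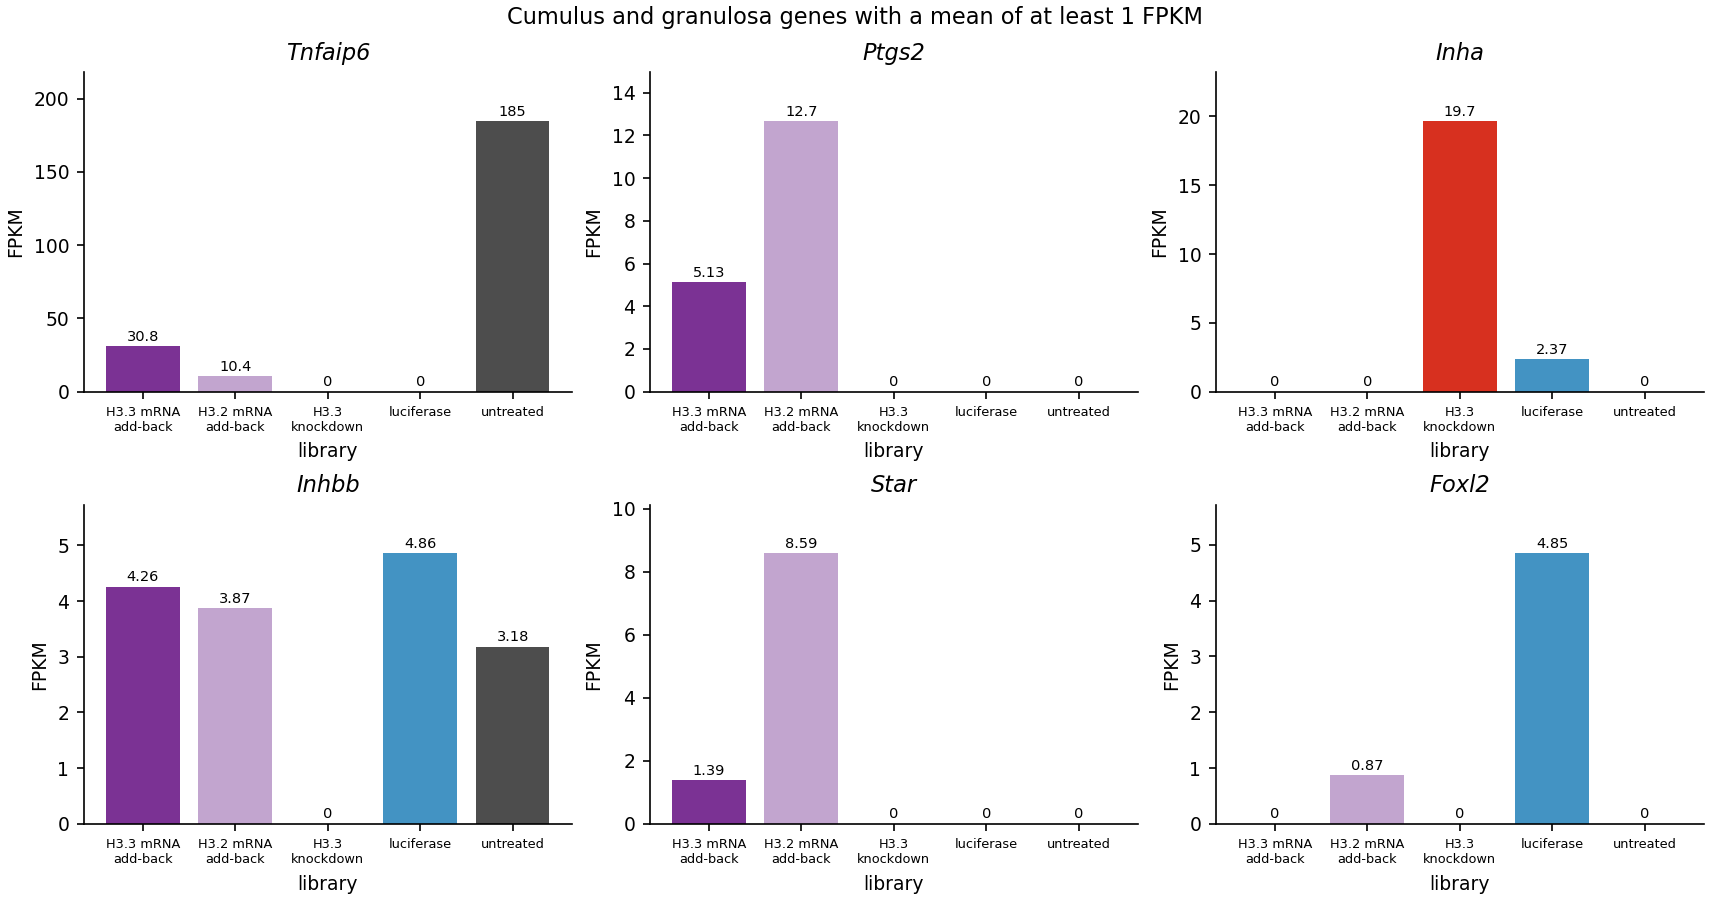
FPKM (y axis, from 0, with its own scale in each panel) of the 6 cumulus and granulosa genes whose mean reached 1 FPKM, in each of the 5 libraries (bars, 1 library each, no error). Tnfaip6 peaks in the untreated library at 184.78 FPKM, Ptgs2 and Star are above 0 in the add-back libraries alone, and Inha peaks in the knockdown at 19.67 FPKM.

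A promoter is shown for 4 genes, so that 3 genes with signal can be set beside a gene listed at 0 everywhere: Sparc and Vim, which were low together in the knockdown, Tnfaip6, and Col3a1, which encodes a fibrillar collagen chain. Lgals1 and Fn1 had no window. The sequences are the 250 bases before the gene's start in RefSeq on GRCm38.p6, a different build from that of the FPKM files, 5′ to 3′ on the gene's strand. Capitals mark matches on either strand to any of 6 motifs. These were TATAAA of the core promoter, the binding letters CCAAT of factor NF-Y, the GC box with letters GGGCGG, the AP-1 site with letters TGANTCA, the cyclic AMP response element with letters TGACGTCA, and the half-site of steroidogenic factor 1 with letters AGGTCA.
Sparc, chr11:55420081-55420330, minus strand: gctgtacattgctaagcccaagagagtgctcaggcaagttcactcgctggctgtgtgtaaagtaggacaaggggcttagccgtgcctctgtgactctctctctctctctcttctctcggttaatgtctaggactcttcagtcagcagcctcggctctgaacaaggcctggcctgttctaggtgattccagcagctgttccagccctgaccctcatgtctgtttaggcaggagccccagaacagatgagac
Vim, chr2:13574061-13574310, plus strand: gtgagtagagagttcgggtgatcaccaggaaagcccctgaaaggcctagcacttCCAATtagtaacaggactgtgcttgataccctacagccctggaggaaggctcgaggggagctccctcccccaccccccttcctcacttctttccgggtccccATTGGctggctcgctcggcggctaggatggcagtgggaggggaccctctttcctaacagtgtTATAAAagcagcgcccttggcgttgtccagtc
Tnfaip6, chr2:52037863-52038112, plus strand: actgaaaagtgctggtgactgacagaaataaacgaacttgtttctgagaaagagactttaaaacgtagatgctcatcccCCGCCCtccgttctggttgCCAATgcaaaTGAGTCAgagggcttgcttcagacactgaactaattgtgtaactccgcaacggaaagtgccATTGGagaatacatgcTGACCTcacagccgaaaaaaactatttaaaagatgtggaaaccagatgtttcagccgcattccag
Col3a1, chr1:45311288-45311537, plus strand: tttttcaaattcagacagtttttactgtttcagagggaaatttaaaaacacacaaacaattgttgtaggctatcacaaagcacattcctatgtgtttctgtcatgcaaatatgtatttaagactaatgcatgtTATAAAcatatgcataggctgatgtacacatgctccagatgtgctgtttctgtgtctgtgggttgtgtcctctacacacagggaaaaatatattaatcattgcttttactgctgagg
The Sparc window held none of the 6 motifs. The Vim window held TATAAA beginning 32 bases before the start and 2 CCAAT motifs beginning 196 and 94 bases before it. The Tnfaip6 window held an AP-1 site 142 bases before the start, 2 CCAAT motifs, a GC box and an AGGTCA half-site, which overlap nowhere. The Col3a1 window held TATAAA 117 bases before the start. Of 32544 RefSeq windows of this length, 12.3% held TATAAA, 33.8% the CCAAT motif, 33% the GC box, 6.73% the AP-1 site, 1.55% the cyclic AMP response element and 14% the half-site. These matches describe the letters and not binding.

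Base composition of the promoters was compared for the 24 of 36 members with a window, 29 windows in all because some genes have several starts. The ratio of observed to expected CpG dinucleotides had a median of 0.28 over 9 windows of fibroblast genes at 0 in all 5 libraries and 0.47 over 5 windows of fibroblast genes above 0 in any. For cumulus and granulosa genes the medians were 0.27 over 7 windows and 0.46 over 8 windows. Over all genes of the files the median was 0.22 for genes at 0 in all 5 libraries and 0.76 for genes above 0 in all 5. The medians of all 4 groups of windows lay between these values. The classes differ, since members were taken as above 0 in any library and all genes as above 0 in all 5. No median was computed for all genes above 0 in any library. Sparc had a ratio of 0.22 with 4 CpG dinucleotides, Vim 0.38 with 8, Tnfaip6 0.65 with 8 and Col3a1 none. Sparc, the highest member, thus had a ratio no higher than the median of genes at 0 everywhere.

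The libraries were then compared pair by pair by counting genes at least 4-fold apart on log2(FPKM + 1), over the 13144 genes whose mean across libraries reached 1 FPKM. Of the members, 6 of 20 fibroblast genes (Sparc, Lgals1, Vim, Fn1, Twist1 and Tagln) and 6 of 16 cumulus and granulosa genes (Tnfaip6, Ptgs2, Inha, Inhbb, Star and Foxl2) passed that filter. A gene can pass it through 1 library where it is high, so the counts describe these genes and support no statement on the list. In the knockdown against both controls, Sparc, Lgals1 and Vim were lower and no fibroblast gene was higher, and the background was 6.35% of all genes lower and 4.98% higher. Of the cumulus and granulosa genes, Inhbb was lower and Inha higher. With a pseudocount of 5 neither was 4-fold from both controls, and under upper-quartile scaling or quantile normalization Inhbb was not. The 2 contrasts share the knockdown library, and the 2 controls differ in source name, a possible batch. Against the luciferase library alone, 4 fibroblast genes and 2 cumulus and granulosa genes were lower (background 18.9%), and Inha was the 1 member that was higher (background 9.74%). Twist1 and Foxl2 were the genes added to the lower ones. Against the untreated library alone, 3 fibroblast genes and 2 cumulus and granulosa genes were lower (background 15.6%), and Fn1 and Inha were higher (background 16.8%). The difference of Fn1 was just under 4-fold with a pseudocount of 5, at 1.88, and under quantile normalization, at 1.95. With a pseudocount of 5, Inhbb was also not 4-fold from the untreated library. At that setting neither Twist1 nor any cumulus or granulosa gene was 4-fold from the luciferase library.

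**Figure D5:**
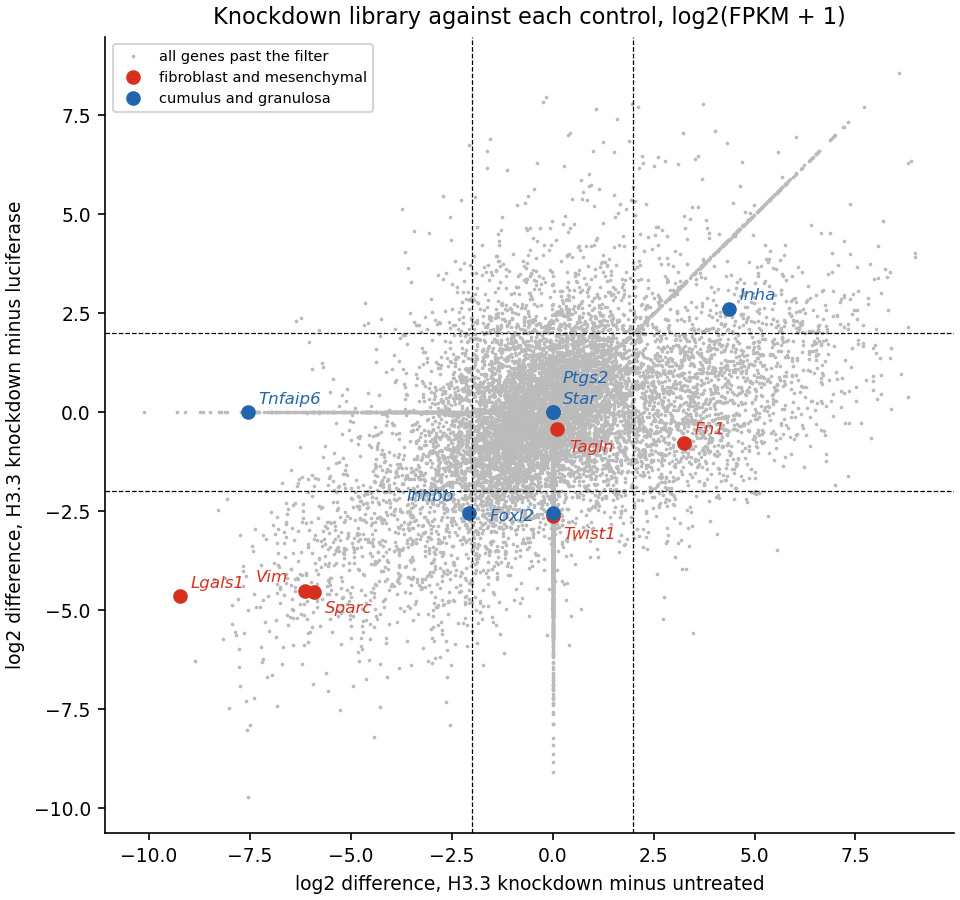
Difference in log2(FPKM + 1) of the knockdown from the untreated library (x axis) and from the luciferase library (y axis), with 1 point per gene past the filter, members coloured and dashed lines at 4-fold. Both axes share the knockdown library. Lgals1, Vim and Sparc lie past both lines on the low side and Inha past both on the high side, and the points on a vertical, horizontal or diagonal line are genes at 0 in some libraries.

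All 3 libraries with the knockdown lay below both controls for Sparc, Lgals1 and Vim, and for no cumulus or granulosa gene past the filter. The background was 8.83% of all genes. No member past the filter lay above both controls in all 3, where the background was 7.14%. Without the untreated library, Twist1, Inhbb and Foxl2 also lay below the luciferase level in all 3. The summed level of the 12 epithelium and trophectoderm markers was likewise lower in all 3 libraries with the knockdown, at 595.84 FPKM with H3.3 mRNA, 530.67 FPKM with H3.2 mRNA and 456.87 FPKM in the knockdown, against 2797 FPKM in the luciferase library and 1960.42 FPKM in the untreated library. Of those 12 markers 7, 9 and 7 were above 0 in the libraries with the knockdown, against 9 and 8 in the luciferase and untreated libraries. Krt8 was at 0 in the knockdown, Krt18 was at 0 with H3.3 mRNA, and Cdx2, Eomes and Krt19 were at 0 throughout. Krt8, Krt18 and Cldn4 were the 3 of these markers that lay below both controls in all 3 libraries with the knockdown. The part of these markers in the result was not tested.

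The H3.3 mRNA add-back was next compared with the knockdown. Sparc and Lgals1 were at least 4-fold higher, as were Ptgs2, Tnfaip6 and Inhbb, against a background of 16.4% of all genes. Sparc stood at 53.06 FPKM against 11.09 FPKM, a difference of 2.16 in log2(FPKM + 1). The other 4 were at 0 in the knockdown. With a pseudocount of 5, Sparc, at 1.85, Ptgs2, at 1.02, and Inhbb were under 4-fold. Inha was the 1 member that was lower, against a background of 10.1%. In the library labelled H3.2 mRNA, Tagln, Ptgs2, Tnfaip6, Inhbb and Star were at least 4-fold higher than in the knockdown (background 19.5%), and Inha was lower (background 9.11%). With a pseudocount of 5 no member was 4-fold higher, with Tnfaip6 at 1.63 and Ptgs2 at 1.82, whereas Inha stayed lower, at -2.30. Sparc stood at 21.71 FPKM against 11.09 FPKM there, a difference of 0.91 that did not reach 4-fold. Both add-back libraries were set against the same knockdown library, so a member at 0 there lies higher in any library that lists it. H3f3a and H3f3b, the genes of H3.3, together stood at 466.83 FPKM with H3.3 mRNA, 420.13 FPKM with H3.2 mRNA and 663.67 FPKM in the knockdown, against 5733.89 FPKM in the luciferase library and 5266.26 FPKM in the untreated library, so no value here shows the added H3.3 mRNA. Both genes have near-identical copies, and their sum is given for that reason.

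The controls differed from each other as well. The source name of the untreated library reads NT and that of the luciferase library reads SCNT. Treatment and this possible batch therefore cannot be told apart between the controls. Since the controls differ in it, the knockdown library differs in source name from at least 1 control. By the same reasoning it differs from at least 1 add-back library. In those contrasts treatment and the possible batch cannot be told apart either. In the luciferase library against the untreated one, Fn1, Twist1 and Foxl2 were at least 4-fold higher (background 23.5%), and Lgals1 and Tnfaip6 were lower (background 13.4%). Lgals1 and Tnfaip6 were lower in the luciferase library along with oocyte markers, of which 11 of 17 were at least 4-fold lower and 1 higher. The 17 oocyte markers summed to 9982.58 FPKM with H3.3 mRNA, 6102.92 FPKM with H3.2 mRNA, 21424 FPKM in the knockdown, 10770.5 FPKM in the luciferase library and 19131.8 FPKM in the untreated library. Dppa3, the maternal-effect gene also known as Stella, made up 72.1% to 95.2% of each sum. The other 16 markers summed to 1432.36 FPKM with H3.3 mRNA, 1285.37 FPKM with H3.2 mRNA, 1888.93 FPKM in the knockdown, 513.49 FPKM in the luciferase library and 5337.59 FPKM in the untreated library, where Lgals1 and Tnfaip6 were highest too. The knockdown, with the next highest sum, listed both Lgals1 and Tnfaip6 at 0. The part of oocyte RNA in the difference between controls was not tested. The untreated library stood farthest from the rest: its Pearson's r with each other library was 0.740 to 0.753 across the 13144 genes, which are not replicates.

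Further genes of the same pathways came from lists that hold no member. Of 25 collagen synthesis genes, which act on any collagen, 23 were above 0 in at least 1 library and 11 in all 5. The share at 0 in all 5 was 8%, against 35.2% of all genes. Of all genes 38.8% were above 0 in all 5. P4hb, a subunit of prolyl hydroxylase that also folds other proteins and was singled out after its values were seen, was at 2148.89 FPKM with H3.3 mRNA, 3173.29 FPKM with H3.2 mRNA, 1416.80 FPKM in the knockdown, 2135.36 FPKM in the luciferase library and 3087.54 FPKM in the untreated library. Enzyme genes of collagen synthesis were thus above 0 in libraries where the listed collagen chains were not. In the knockdown against both controls, 3 of 19 collagen synthesis genes past the filter were at least 4-fold lower and none higher, where the background was 6.35% of all genes lower and 4.98% higher. Their difference, averaged over the 2 controls, had a median of -0.72 in log2(FPKM + 1), against -0.16 over all genes. Against the luciferase library alone 6 were lower and none higher, with a median of -0.31. Of all genes 18.9% were lower and 9.74% higher there, with a median of -0.12. Against the untreated library alone 5 were lower and 4 higher, with a median of -0.49. Of all genes 15.6% were lower and 16.8% higher there, with a median of 0. The genes lower against both controls were P4ha1, Plod2 and Bmp1, a prolyl hydroxylase subunit, a lysyl hydroxylase and the protease that trims procollagen. Against the untreated library alone Plod3 and Serpinh1 were lower too. Plod2 was at 23.87 FPKM with H3.3 mRNA, 97.44 FPKM with H3.2 mRNA, 0 in the knockdown, 60.77 FPKM in the luciferase library and 8.26 FPKM in the untreated library. Serpinh1, the collagen chaperone gene with the widest range, was at 36.38 FPKM with H3.3 mRNA, 0 with H3.2 mRNA, 15.17 FPKM in the knockdown, 21.44 FPKM in the luciferase library and 182.58 FPKM in the untreated library. Loxl1, which encodes an enzyme that crosslinks elastin and collagen, was highest in the knockdown, at 52.74 FPKM, and at 0 in the untreated library.

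Among 49 other mesenchymal genes, 41 were above 0 in at least 1 library and 8 (16.3%) were at 0 in all, against 35.2% of all genes. S100a6, a calcium-binding protein gene of the same family as S100a4, had the widest range, at 148.63 FPKM with H3.3 mRNA, 17.16 FPKM with H3.2 mRNA, 278.71 FPKM in the knockdown, 145.57 FPKM in the luciferase library and 0 in the untreated library. Col4a1 and Col4a2, the chains of basement membrane collagen, were at 141.41 and 149.19 FPKM in the luciferase library and at 8.16 FPKM or less elsewhere. Bgn, the proteoglycan biglycan, was above 0 in the untreated library alone, at 129.32 FPKM. In the knockdown against both controls, 4 of 35 genes past the filter were at least 4-fold lower (Tpm1, Anxa2, Itga5 and Nid1; background 6.35%) and 2 higher (Cdh2 and Prrx2; background 4.98%). Their difference, averaged over the 2 controls, had a median of -0.98 in log2(FPKM + 1), against -0.16 over all genes. Against the luciferase library alone 14 were lower (background 18.9%) and 4 higher (background 9.74%), with a median of -0.70 against -0.12 over all genes. Against the untreated library alone 11 were lower (background 15.6%) and 6 higher (background 16.8%), with a median of -0.13 against 0 over all genes. Itga5, which encodes the alpha chain of the main fibronectin receptor, was at 23.38 FPKM with H3.3 mRNA, 19.64 FPKM with H3.2 mRNA, 0 in the knockdown, 10.63 FPKM in the luciferase library and 29.38 FPKM in the untreated library. Its partner gene Itgb1 was at 70.52 FPKM with H3.3 mRNA, 130.09 FPKM with H3.2 mRNA, 51.49 FPKM in the knockdown, 164.88 FPKM in the luciferase library and 56.40 FPKM in the untreated library. Itga5 and Itgb1 were named after their values were seen. Of 22 integrin and matrix receptor genes, 15 passed the filter, and the knockdown level of Itga7 and Itgb4 was 4-fold or more below either control (background 6.35%). None was at least 4-fold higher than both (background 4.98%), although Itga11, at 16.80 FPKM in the knockdown, lay above the 3.93 FPKM of the luciferase library and the 0 of the untreated library. Over these 15 genes the difference, averaged over the 2 controls, had a median of -0.91, against -0.16 over all genes. Against the luciferase library alone 6 were lower (background 18.9%) and none higher (background 9.74%), with a median of -0.88. Against the untreated library alone 4 were lower (background 15.6%) and 2 higher (background 16.8%), with a median of -1.32. Ddr2, a receptor tyrosine kinase gene for fibrillar collagen, was at 67.31 FPKM with H3.3 mRNA and 76.07 FPKM with H3.2 mRNA, against 0.94 FPKM in the knockdown, 12.25 FPKM in the luciferase library and 0 in the untreated library.

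Of 41 other granulosa and cumulus genes, 31 were above 0 in at least 1 library. The other 10 (24.4%) were at 0 in all, against 35.2% of all genes. In the knockdown against both controls, Cyp17a1 and Npr2 were at least 4-fold lower, 2 of the 30 genes past the filter, and none was higher. This count is near the background of 6.35% lower and 4.98% higher. Their difference, averaged over the 2 controls, had a median of -1.01 in log2(FPKM + 1), against -0.16 over all genes. Against the luciferase library alone 11 were lower (background 18.9%) and 1 higher (background 9.74%), with a median of -0.77 against -0.12 over all genes. Against the untreated library alone 6 were lower (background 15.6%) and 3 higher (background 16.8%), with a median of -0.11 against 0 over all genes. Npr2, which encodes the cumulus receptor for C-type natriuretic peptide that holds the oocyte in meiotic arrest, was at 18.47 FPKM with H3.3 mRNA, 2.02 FPKM with H3.2 mRNA, 0 in the knockdown, 10.43 FPKM in the luciferase library and 168.29 FPKM in the untreated library. Cyp17a1, the enzyme gene of androgen synthesis, was at 0 with H3.3 mRNA, 12.08 FPKM with H3.2 mRNA, 14.94 FPKM in the knockdown, 65.88 FPKM in the luciferase library and 87.03 FPKM in the untreated library. Fdx1, which encodes the ferredoxin that passes electrons to mitochondrial steroid enzymes, was at 0 with H3.3 mRNA and 22.38 FPKM with H3.2 mRNA, against 44.66 FPKM in the knockdown, 84.26 FPKM in the luciferase library and 82.41 FPKM in the untreated library. Among 13 genes of the activin and inhibin pathway, 11 passed the filter, and the knockdown level of 3 was 4-fold or more below either control (the receptor gene Acvr2b, the inhibitory Smad gene Smad7 and Inhbc), with none at least 4-fold higher, against the background of 6.35% lower and 4.98% higher. Short of that limit, Acvr1, Acvr2a, Fstl3 and Smad4 also lay below both controls in the knockdown, and Smad2 and Smad3 lay above both. Acvr2b was at 49.55 FPKM with H3.3 mRNA, 48.88 FPKM with H3.2 mRNA, 0 in the knockdown, 27.47 FPKM in the luciferase library and 69.58 FPKM in the untreated library. Against the luciferase library alone 7 of the 11 were at least 4-fold lower (background 18.9%) and none higher (background 9.74%). Against the untreated library alone 4 were lower (background 15.6%) and none higher (background 16.8%). Of the 13 pathway genes, 5 were above 0 in the knockdown and 10 in each add-back library. In the luciferase library 10 were, and in the untreated library 11. Of all genes, 47.7% were above 0 in the knockdown, 55.8% in the luciferase library and 47.4% in the untreated library. With the add-backs the share was 51.2% for H3.3 mRNA and 55.7% for H3.2 mRNA.

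Blood and endothelial markers (62.5%) and neural and muscle markers (54.5%) were at 0 in all libraries more often than all genes (35.2%). Sertoli and Leydig markers were not, at 33.3%. Of 16 blood and endothelial markers, 10 were at 0 in all libraries, Cdh5, Kdr and Ptprc among them, but Pecam1 was at 647 FPKM with H3.3 mRNA, 40.35 FPKM with H3.2 mRNA, 65.64 FPKM in the knockdown, 184.06 FPKM in the luciferase library and 214.91 FPKM in the untreated library. Of 11 neural and muscle markers in the files, 6 were at 0 in all, with Pax6 at 38.12 FPKM in the luciferase library alone. Of 9 Sertoli and Leydig markers in the files, 3 were above 0 in each add-back library and 5 in the knockdown, against 3 in the luciferase library and 2 in the untreated library. In the knockdown that was 55.6% of them, against 47.7% of all genes. In the other libraries it was 22.2% to 33.3%, against 47.4% to 55.8% of all genes. Their sum was highest in the untreated library, at 334.84 FPKM, against 213.81 FPKM in the knockdown. Clu was at 88.66 FPKM with H3.3 mRNA, 151.44 FPKM with H3.2 mRNA, 98.74 FPKM in the knockdown, 67.32 FPKM in the luciferase library and 333.26 FPKM in the untreated library. Cst9 was at 12.35 FPKM with H3.3 mRNA, 16.74 FPKM with H3.2 mRNA, 90.95 FPKM in the knockdown and 0 in both controls. Sox9 was at 4.11 FPKM in the knockdown and at 0 in the other 4 libraries. All 20 genes of a housekeeping list, chosen after the values were seen, were above 0 in every library.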

How the data were processed

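Each deposited file gives 1 FPKM value for each of 22026 gene symbols in 1 library. Per the submitters' processing notes, the authors used TopHat and Cufflinks with mm9 to make the FPKM values; versions, annotation and settings are not given in the sources used here. FPKM is scaled to transcript length and library total, so abundant transcripts shift all others. Sequencing depth is unknown: no interval or detection limit is given, and a gene at exactly 0 is described as listed at 0, and whether some are failed estimates was not tested. Between 10443 and 12300 genes per library were above 0.

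Differences are in log2(FPKM + 1), a scale that shrinks changes of low genes, over genes whose mean reached 1 FPKM, and a gene counted as apart at 4-fold (2 on the log2 scale). With 1 library per group no test was possible. Members that reach 10 FPKM in any library are given in full. Of other lists, genes past the fold and up to 4 genes with the widest range could be named. Some genes outside that rule are marked as chosen after their values were seen. Others outside it carry no mark, among them Itga11, Clu, Dppa3, Cldn4, Acvr2a, Fstl3, Smad2, Smad3 and Smad4. Members and lists were chosen with earlier results of these data known. Promoter windows came from RefSeq (GRCm38.p6), matched by symbol. Counting and scaling were run on simulated data without noise, with changes placed only in well-expressed genes. No outcome was required of quantile normalization, and the check does not cover genes with low values or zeros. Python 3.11.15, pandas 2.3.3, numpy 2.4.6 and matplotlib 3.10.9 were used. Alternatives were other pseudocounts (0.1 and 5), no filter, a mean of at least 5 FPKM, upper-quartile scaling, quantile normalization and an 8-fold threshold.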

Additional observations from a re-analysis of the deposited data

How the results depend on the processing

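The counts of members at least 4-fold apart were recomputed under 7 alternatives. For the fibroblast genes, the count stayed within 1.5 times the reported one for the knockdown against both controls (3), against luciferase (4), against untreated (4) and for luciferase against untreated (3). For the H3.3 mRNA add-back it was 2 and became 1 with a pseudocount of 5 and at 8-fold. For the library labelled H3.2 mRNA it was 1 and became 0 with a pseudocount of 5, a mean of at least 5 FPKM, quantile normalization and 8-fold. For the cumulus and granulosa genes, the count for the knockdown against both controls was 2 and became 0 with a pseudocount of 5, a mean of at least 5 FPKM and 8-fold, and 1 under both scalings. Against luciferase it was 3 and became 0 with a pseudocount of 5, a mean of at least 5 FPKM and 8-fold, and 1 under quantile normalization. Against untreated it was 3 and became 1 at a mean of at least 5 FPKM. For the H3.3 mRNA add-back it was 4 and became 2 with a pseudocount of 5 and at 8-fold and 1 at a mean of at least 5 FPKM, where 1 gene was left to count. For the library labelled H3.2 mRNA it was 5 and became 1 with a pseudocount of 5 and at a mean of at least 5 FPKM. For luciferase against untreated it was 2 and became 1 with a pseudocount of 5, a mean of at least 5 FPKM, quantile normalization and 8-fold. These genes have low values, and the cause of each change was not tested. Without the untreated library, 2 cumulus and granulosa genes were below luciferase in all 3 libraries with the knockdown, against 0 below both controls. That setting, the one without the library labelled H3.2 mRNA and the missing filter for this count were chosen after seeing the data. For the 7 members that reach 10 FPKM, 140 differences were recomputed, and sign was checked only for those that passed 4-fold. A pseudocount cannot change a sign, so only the scalings could, and under these none changed. In size, 17 differences moved by at least 1.5-fold with a pseudocount of 0.1 and 18 with a pseudocount of 5. Under quantile normalization 6 did, and under upper-quartile scaling none did. Upper-quartile scaling moved the median of all genes by 0.25 for luciferase against untreated and 0.21 for the library labelled H3.2 mRNA against the knockdown, and quantile normalization moved it by 0.15 for the knockdown against luciferase, by -0.15 for the H3.3 mRNA add-back and by -0.10 for the library labelled H3.2 mRNA, both against the knockdown. No paired analysis was possible because each group holds 1 library. Because depth is unknown, no limit can be put on the level that a listed 0 allows.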
